A study of Mus musculus with 4 samples.

Results

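Heat shock proteins and chaperonin subunits were compared between mouse B-cell lymphoma lines and normal B220+ splenocytes on 4 single-colour expression arrays. Members were all non-control probes whose gene name on the array begins with Dnaja, Dnajb, Dnajc, Hspa, Hspb, Hspd, Hspe, Hsph or Hsp90, or is Cct and a digit, or is Tcp1, Hsf1, Hsf2 or Cryab. The chaperones Hspa5, Hsp90b1, Dnajb9, Dnajb11 and Dnajc3 of the endoplasmic reticulum were left out. This choice used names and no measured value, but it was made with earlier results of these data known. It gave 70 gene names with 135 probes, of 27745 gene names with 41174 probes on the array. One of them, Dnajc3a, is Dnajc3 by its current RefSeq symbol and stayed in under its array name. Hsp110, now called Hsph1, fell outside by its name.

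One group was 2 samples of B220+ splenocytes from female C57BL/6N mice, without any stated treatment. B220 is a surface form of CD45 used to pick B cells out of the spleen. The other group was 2 B-cell lymphoma lines, each on 1 array, which the labels give as independent lines from dopamine receptor 3 transgenic mice of the same strain and sex. The promoter that drives the transgene and the culture conditions of the lines were not given in the sources used here. The groups thus differ in being malignant or normal, cultured or taken from spleen, and in the mice they came from, and these cannot be told apart. Nothing in the labels says that the splenocyte samples came from separate animals, so a p-value here speaks only of how far these particular samples lie apart, and that spread can be technical. In bulk RNA, fewer cells of a type and less RNA per cell cannot be told apart.

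Chaperones bind proteins that are not yet folded or have come unfolded, and keep them from clumping. HSP70 proteins take up short stretches of such chains in cycles of ATP hydrolysis that J-domain proteins start, and pass some clients on to HSP90. Chaperonins are barrels that enclose 1 chain at a time, HSP60 with its lid HSP10 in mitochondria and the CCT ring, also called TRiC, in the cytosol, where actin and tubulin are its best known clients. Part of this set is made all the time for newly made proteins, and part is switched on by stress through the transcription factor HSF1, with the inducible HSP70 gene Hspa1a as the textbook example.

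All values are the processed signal of a probe divided by the 75th percentile of its array, called relative signal below, so that 1 is the 75th percentile. Differences are log2 values, lines minus splenocytes, with their SE and with n = 2 against 2. They were tested in 1 limma fit over 18308 genes, with Benjamini-Hochberg adjusted p-values over all of them. A gene was called at an adjusted p under 0.05, and "rose" and "fell" are used only of such genes. Signals of different probes are not comparable in level, so each gene is compared only with itself.

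Across the arrays the 75th percentile ran from 514 to 1315, and 24962 to 27311 probes were well above background. No spot was saturated. Pearson's r across genes, which are not independent replicates, was 0.992 between the splenocyte samples and 0.991 between the lines. Of all 18308 genes 63.3% were called, 30.7% higher and 32.6% lower in the lines, and the median difference was −0.05. All 8 B cell markers examined were well above background on all 4 arrays, and 5 of them fell in the lines. Summed over the list, relative signals came to 556 and 698 for splenocytes and to 304 and 296 for the lines. Of 8 T cell markers 5 fell and 1 rose, with sums of 15.4 and 13.5 against 7.05 and 8.71. The 1 that rose was Cd3g, by 4.36, and it gave 5.09 and 6.15 of the sums in lines 1 and 2. Thy1 and Cd8a were not well above background in either line. Of 8 markers of macrophages, monocytes and neutrophils 7 fell, and S100a8 and Lyz2 were not well above background in either line. The sum of that list was 15.9 and 10.5 in splenocytes and 35.5 and 35.9 in the lines, because Adgre1, on the array as Emr1, rose by 4.23. Of 5 tested erythroid markers 3 fell, with sums of 5.80 and 5.82 against 2.46 and 0.986, and Alas2 was not well above background in either line. The part of such other cells in the results below was not tested.

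Of the 70 members 64 could be tested, and 58 of these were well above background on all 4 arrays. Of the 9 genes of the cytosolic chaperonin 8 rose, as did the mitochondrial chaperones Hspd1 and Hspa9. The stress-inducible Hspa1a fell further than any other tested member. HSP90 and most J-domain proteins differed by less than 2-fold at their brightest probes. In all, 26 members rose (30.7% of all genes were called higher), 14 fell (32.6% of all genes) and 24 did not pass. The share of members called, 62.5%, lay beside the 63.3% of all genes, and is therefore no result about the members. The share called higher was 40.6% and the median difference was 0.27, against −0.05 over all genes. This contrast of shares was not tested. At least 2-fold calls numbered 17 higher and 8 lower, where all genes gave 21.5% and 24.4%. Both lines lay above both splenocyte samples for 35 members, as for 41.2% of all genes, and below them for 20, as for 43.8%. Among the 58 members well above background on all arrays 25 rose (43.1%) and 11 fell (19.0%). With only probes well above background on all arrays, 66.1% of all genes were called, and 50.1% of those calls were higher. That setting gave 27 members higher and 12 lower. This contrast was not tested either. The counts over all tested members also hold Dnaja4, Dnajb3 and Hsf2, each not well above background in 1 whole group, which passed the filter only through the group where they were brighter.

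The balance of these calls depended on the scaling of the arrays. Centring each array on the median of all its probes gave 34 members higher and 8 lower, and turned the share of higher genes among all calls from 48.5% to 63.8%. The number of calls, in both directions, also depended on single samples. Without splenocyte sample 1, 15 members were called higher and 11 lower, and without splenocyte sample 2, 15 and 9, while the share called over all genes went to 48.2% and 45.9%. Of the 40 calls 23 (57.5%) held without any one array, 14 of them higher and 9 lower, against 66.0% of the calls over all genes.

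**Figure D1:**
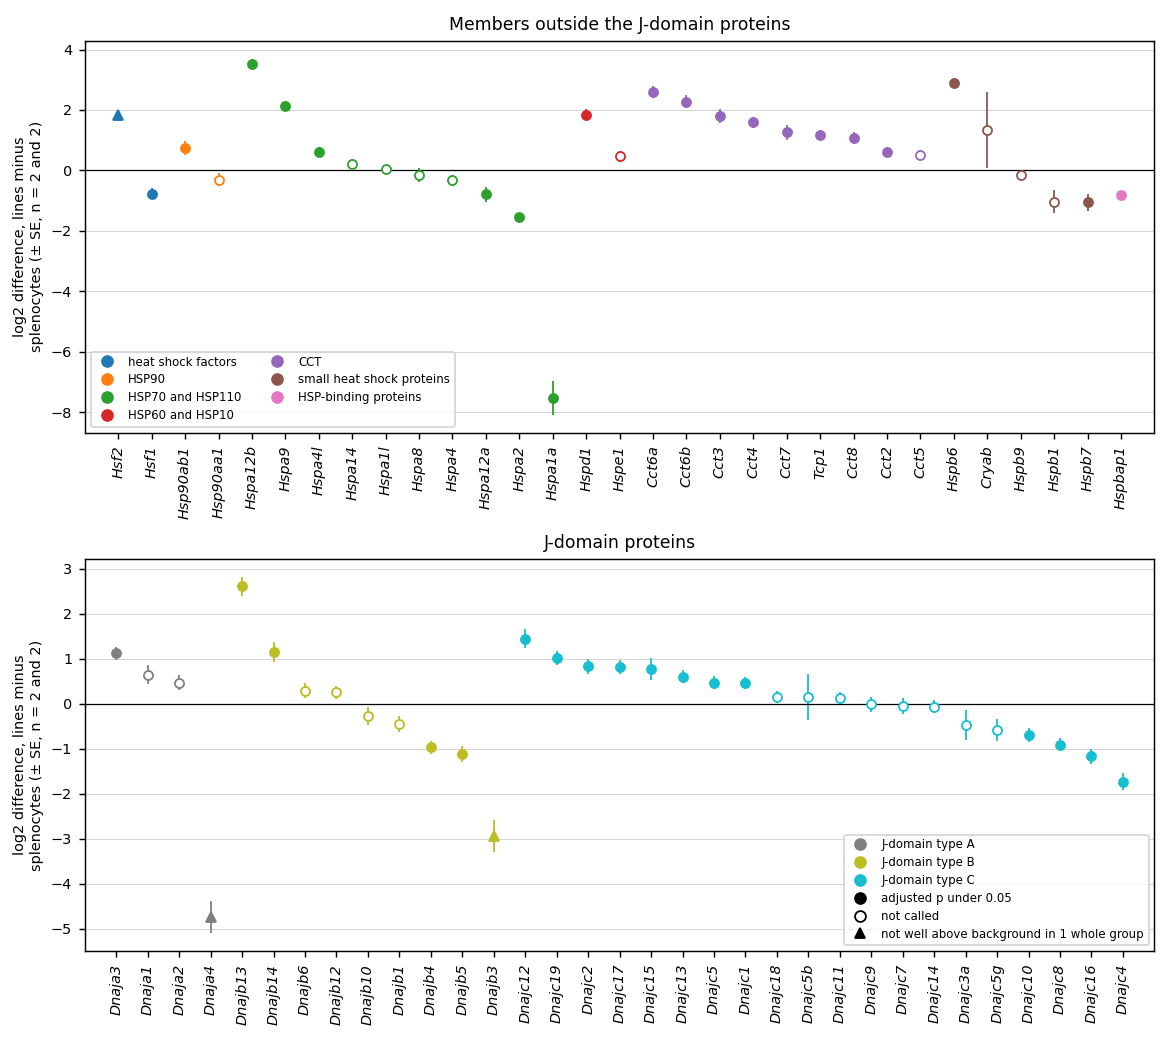
Log2 difference of each tested member, lines minus splenocytes, with the SE as bars (n = 2 against 2), ordered by role and size; filled symbols had an adjusted p under 0.05, open ones did not, and triangles mark probes not well above background in 1 whole group. All 9 CCT subunits lie above 0, and Hspa1a lies lowest at −7.53.

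The cytosolic chaperonin CCT was higher in the lines in nearly every subunit. All 9 tested genes of the ring, which are Tcp1 and the Cct genes, had both lines above both splenocyte samples, as had 41.2% of all genes. Of the 9, 8 were called, where 30.7% of all genes were called higher. Their median difference was 1.26, and they ran from 0.51 for Cct5 to 2.59 for Cct6a. All 9 differences stayed above 0 under each scaling tried. Fewer of them were called without splenocyte sample 1 or without splenocyte sample 2, as over all genes. The 5 genes called without any one array were Cct3, Cct4, Cct6a, Cct6b and Tcp1.

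Cct6a, the zeta subunit of most tissues, gave 1.09 and 1.03 in splenocyte samples 1 and 2 and 7.35 and 5.59 in lines 1 and 2, the order used for all values here. Both lines were far above both splenocyte samples, and the gene rose by 2.59 ± 0.19 (adjusted p = 0.000964), or 6.03-fold. Its probe lies on chromosome 5 at 130106587 to 130106646 of the mm8 build that the array annotation uses.

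Cct6b, the second zeta gene, which is best known from testis, gave 4.62 and 4.94 in splenocytes and 27.0 and 19.8 in the lines. It rose by 2.28 ± 0.21 (adjusted p = 0.00154). Its probe stands on another chromosome, 11, at 82535565 to 82535624. The probes of both zeta genes were thus higher in the lines. Whether RNA of one reaches the probe of the other was not tested.

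Cct3, the gamma subunit, gave 2.80 and 2.61 in splenocytes against 11.5 and 7.69 in the lines, a rise of 1.80 ± 0.24 (adjusted p = 0.00416). Line 1 was well above line 2. A second, dimmer Cct3 probe, made to a cDNA clone sequence and not to the reference transcript, gave −0.44 (adjusted p = 0.214), and averaging both probes left a rise of 0.68.

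Cct4, the delta subunit, gave 16.1 and 14.4 in splenocytes and 51.6 and 41.4 in the lines (1.60 ± 0.18, adjusted p = 0.00263). Its second probe, also to a cDNA clone, gave 0.0549 and 0.0650 against 2.03 and 1.41, a difference of 4.82 ± 0.24 (adjusted p = 0.000364 in the fit over probes). Both probes were higher in both lines, but by very unequal amounts, and their average gave 3.21.

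Tcp1, the alpha subunit that gave the complex its older name, gave 22.0 and 20.7 in splenocytes and 54.0 and 43.0 in the lines. It rose by 1.18 ± 0.18 (adjusted p = 0.00576), and its second probe rose by 1.01. Cct7 (eta) gave 19.9 and 20.2 against 59.1 and 38.8 and rose by 1.26 ± 0.25 (adjusted p = 0.0125). Cct8 (theta) rose by 1.06 ± 0.20 (adjusted p = 0.0112) and Cct2 (beta) by 0.62 ± 0.17 (adjusted p = 0.0312). The calls of Cct2, Cct7 and Cct8 were lost without splenocyte sample 1 (adjusted p = 0.139, 0.0532 and 0.0574), those of Cct2 and Cct7 also without splenocyte sample 2 (0.116 and 0.0532), and that of Cct2 without line 1 (0.0772).

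Cct5, the epsilon subunit, was the exception by call and not by direction. It gave 55.4 and 58.8 in splenocytes and 90.4 and 73.4 in the lines, with a difference of 0.51 ± 0.17 that missed the threshold (adjusted p = 0.0572). Centring on the median (0.94), quantile normalization (0.49) and leaving out line 2 (0.66) each brought it past. In every subunit line 1 was above line 2. Genes of proliferation differed the same way between the groups: all 10 examined rose, with a median of 2.74 and a summed relative signal of 89.0 and 65.8 for splenocytes against 377 and 286 for lines 1 and 2. Their part in the CCT values was not tested.

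**Figure D2:**
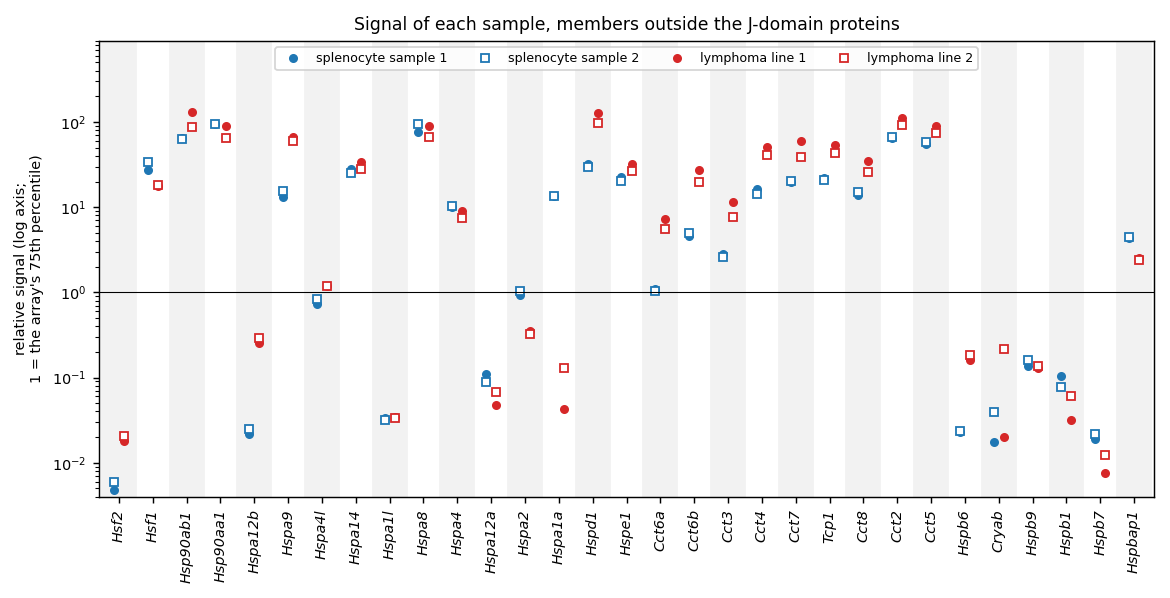
Relative signal on a log axis of each tested member outside the J-domain proteins in the 4 samples, where 1 is the 75th percentile of the array; levels of different genes are not comparable. The 2 samples of a group lie close together for most members, Cryab differs most between the lines, and Hspa1a has both lines (0.0424 and 0.128) far below both splenocyte samples (13.6).

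The mitochondrial chaperonin rose in its barrel, while its lid did not pass the test. Hspd1, which encodes HSP60, gave 31.7 and 29.7 in splenocytes and 127 and 96.2 in the lines. It rose by 1.85 ± 0.20 (adjusted p = 0.00219), or 3.60-fold, and its second probe rose by 2.85 ± 0.20. Hspe1, which encodes the lid HSP10, gave 22.4 and 20.5 against 32.4 and 27.0. Both lines were above both splenocyte samples here too, but the difference of 0.46 ± 0.17 was not called (adjusted p = 0.0711). With each array centred on its median it was 0.89 and called.

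Hspd1 and Hspe1 lie head to head on chromosome 1 and share the stretch between their starts. The probes are at 55022530 to 55022589 and 55035623 to 55035682 of mm8. Promoters of members were searched for the heat shock element, the site that heat shock factors are known to bind. It was spelled as 3 blocks with 2 bases of any kind between them, either GAA, TTC and GAA or, on the other strand, TTC, GAA and TTC. The window was the 250 bases before each start in RefSeq's GRCm38.p6. Of the 70 members 56 had a promoter there. Those without one included Hspa8, Hsp90aa1, Hsp90ab1, Hspa9, Hsf1 and Cryab. Apart from a shorter core given below, no other spelling was searched, and no base further out. The element was found in 3 of these 56 genes (5.36%), which are Hspd1, Hspe1 and Dnajb6, and in 139 of all 27025 genes (0.514%). Because Hspd1 and Hspe1 share 1 stretch, these are 2 places and not 3. The shared stretch, chr1:55087933-55088147, is shown on the minus strand because its capitals mark 2 overlapping matches, and the Dnajb6 window, chr5:29735648-29735897 on the plus strand, because it holds the other.

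Hspd1 and Hspe1: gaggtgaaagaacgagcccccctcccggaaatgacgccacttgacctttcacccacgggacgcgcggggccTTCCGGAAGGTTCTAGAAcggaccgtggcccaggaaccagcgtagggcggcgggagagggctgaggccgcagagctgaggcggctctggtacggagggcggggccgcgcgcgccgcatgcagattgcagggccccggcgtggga
Dnajb6: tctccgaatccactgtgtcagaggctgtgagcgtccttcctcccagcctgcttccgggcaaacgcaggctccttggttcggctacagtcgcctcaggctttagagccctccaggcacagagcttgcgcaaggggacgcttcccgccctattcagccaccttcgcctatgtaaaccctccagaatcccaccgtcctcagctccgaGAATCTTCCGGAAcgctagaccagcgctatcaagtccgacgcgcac

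A match describes letters and is neither a bound site nor a cause. Of the 3 genes with the element Hspd1 rose, and neither Hspe1 nor Dnajb6 (0.29 ± 0.16, adjusted p = 0.186) was called at its brightest probe. In all 3 both lines lay above both splenocyte samples, as for 41.2% of all genes. Of the 3 tested Dnajb6 probes 1 was called higher in the fit over probes. The shorter core, 2 blocks of GAA and TTC in either order with 2 bases between them, reads the same on both strands and is part of every full element. It was in 13 of the 56 members (23.2%) and in 14.5% of all genes.

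In the HSP70 family, calls were about as frequent as over all genes. Of 10 tested genes 3 rose (30.7% of all genes were called higher), 3 fell (32.6%) and 4 did not pass, with a median of −0.05 as over all genes, so these counts are no result about the family. Hspa9, the mitochondrial HSP70 called mortalin, gave 13.2 and 15.6 in splenocytes and 66.6 and 60.5 in the lines. It rose by 2.14 ± 0.16 (adjusted p = 0.00104), or 4.42-fold, and its second probe by 2.93. The lines lay close together. Hspd1 and Hspa9, the main folding chaperones of the mitochondrial matrix, were thus 3.60- and 4.42-fold higher, and both calls held without any one array.

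Hspa12b, a distant HSP70 relative of endothelial cells, gave low signals of 0.0220 and 0.0250 in splenocytes and 0.254 and 0.292 in the lines. It rose by 3.54 ± 0.16 (adjusted p = 0.000339), the largest rise of all tested members. After normexp background correction, which compresses low signals, the rise was 1.67. Hspa4l, an HSP110-type exchange factor, gave 0.727 and 0.846 against 1.20 and 1.19 and rose by 0.61 ± 0.15 (adjusted p = 0.0258). That call was lost whichever array was left out, with adjusted p-values of 0.0636 to 0.147.

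The constitutive cytosolic HSP70 did not pass. Hspa8, which encodes HSC70, gave 76.9 and 95.5 in splenocytes and 89.4 and 67.1 in the lines. The groups overlapped and the difference was −0.15 ± 0.22 (adjusted p = 0.591). Its second probe gave 0.62 (adjusted p = 0.0998), so even the direction was not settled. Hspa14, a ribosome-associated HSP70, differed by 0.22 ± 0.17 (adjusted p = 0.311).

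Hspa4, an HSP110-type exchange factor, was the 1 member with probes called in opposite directions. Its brightest probe gave 10.1 and 10.4 in splenocytes and 9.11 and 7.42 in the lines (−0.32 ± 0.17, adjusted p = 0.166). A second probe gave 3.34 and 3.76 against 6.68 and 4.99 and rose by 0.71 (adjusted p = 0.0374). The dimmest probe, made to a cDNA clone, gave 0.139 and 0.112 against 0.0121 and 0.0261 and fell by 2.81 (adjusted p = 0.00475). Hspa4 therefore has no single direction on these arrays.

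Among the HSP70 genes that fell, Hspa2, best known from testis, gave 0.928 and 1.03 in splenocytes and 0.348 and 0.323 in the lines. It fell by 1.54 ± 0.15 on the log2 scale (adjusted p = 0.00175), and its second probe fell by 1.21. Hspa12a, a relative of Hspa12b, gave 0.110 and 0.0887 against 0.0481 and 0.0674 and fell by 0.79 ± 0.24 (adjusted p = 0.0425). Its call was lost without splenocyte sample 1 (0.170), splenocyte sample 2 (0.0790) or line 1 (0.112).

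Hspa1a, the stress-inducible HSP70, had the largest difference of all tested members. Splenocytes gave 13.6 in both samples, line 1 gave 0.0424 and line 2 gave 0.128. The splenocyte samples were alike and bright, both lines were far dimmer, and line 2 was 3.02-fold above line 1. The gene fell by 7.53 ± 0.56 on the log2 scale (adjusted p = 0.000966), or 184-fold. Without line 1 the difference was −6.73 and without line 2 it was −8.32.

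All 4 Hspa1a probes fell, with differences of −7.53, −7.82, −5.11 and −5.41. For 2 of them the array's own accessions also list Hspa1b, a near-identical neighbour, so these signals may hold RNA of both. The brightest probe lies on chromosome 17 at 34577877 to 34577936 of mm8. Hspa1l, the neighbouring testis-type gene with a probe at 34586740 to 34586799, gave 0.0338 and 0.0322 against 0.0347 and 0.0332. It overlapped between the groups at low signal (0.04 ± 0.14, adjusted p = 0.803). The promoter of Hspa1a, the gene with the largest fall, is shown for the window chr17:34972157-34972406 on the minus strand, with its 1 core match in capitals.

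Hspa1a: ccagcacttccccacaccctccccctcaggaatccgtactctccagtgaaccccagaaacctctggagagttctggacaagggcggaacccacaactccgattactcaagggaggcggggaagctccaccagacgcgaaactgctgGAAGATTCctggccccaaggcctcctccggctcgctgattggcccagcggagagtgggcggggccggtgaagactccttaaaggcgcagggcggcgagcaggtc

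This window holds no full element as spelled above. It matches the Hspa1b window at 247 of 250 bases, which also holds 1 core match.

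Immediate-early genes, which the handling of cells is known to induce, moved with Hspa1a. All 12 examined (Fos, Jun, Egr1, Dusp1, Klf4 and others) fell, with a median of −5.20. Their relative signals summed to 603 and 663 for splenocytes but to 78.5 and 63.9 for the lines, and Klf4 was not well above background in either line. Their part in the Hspa1a result was not tested.

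Other genes known to be induced by heat shock did not share one direction. Of 7 examined 3 rose (30.7% of all genes were called higher and 32.6% lower), Mrpl18 (1.14), Cacybp (1.102) and Zfand2a (0.998), and 4 fell, most of all Dedd2 (−2.42) and Ier5 (−1.90). The HSP70 co-chaperone gene Bag3, a further heat shock gene, fell from 0.408 and 0.427 in splenocytes to 0.00757 and 0.00673 in the lines at its brightest probe. Because that probe was not well above background in either line, its fold is a lower bound, at least 52.9-fold lower. For such bounds the bright group's mean is set against the higher of the probe's own signal and the lowest signal well above background on each dim array. When only probes well above background on all arrays were used, another Bag3 probe gave a fall of 1.26.

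HSP90 differed by less than 2-fold at its brightest probes. Hsp90ab1, the constitutive cytosolic HSP90, gave 65.0 and 63.8 in splenocytes and 129 and 88.4 in the lines. Both lines were above, and the gene rose by 0.73 ± 0.23 (adjusted p = 0.0485), with 1.31 at its second probe. The call was lost without splenocyte sample 1 (adjusted p = 0.142), splenocyte sample 2 (0.156) or line 1 (0.0822). Hsp90aa1, the inducible form, gave 93.6 and 95.2 against 90.3 and 64.7. Both lines were lower, line 1 only just, and the difference of −0.30 ± 0.21 was not called (adjusted p = 0.267) and was 0.12 with each array centred on its median.

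Of the heat shock factors, Hsf1 was called lower at its brightest probe and not at its others, and Hsf2 was well above background only in the lines. Hsf1, the main regulator of the heat shock response, gave 27.4 and 34.0 in splenocytes and 17.9 and 18.1 in the lines at its brightest probe. It fell by 0.76 ± 0.17 (adjusted p = 0.0186). The array assigns that probe to another sequence than the reference transcript, and both probes to the reference transcript gave 0.27 and 0.32 without a call (adjusted p = 0.159 and 0.121). The call was also lost without splenocyte sample 2 (0.103), line 1 (0.0592) or line 2 (0.0542), and the mean over the 3 probes was −0.06. Hsf2, a factor known from development and from mixed complexes with HSF1, gave 0.00482 and 0.00600 against 0.0179 and 0.0204. In the lines it was at least 1.78-fold higher (1.83 ± 0.18, adjusted p = 0.00196, computed from splenocyte signals not well above background). After normexp background correction it was −0.29.

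Small heat shock proteins, which hold unfolded proteins without using ATP, gave relative signals below 1 on every array at their brightest tested probes. Of 8 names, 5 could be tested, and 4 of these were well above background on all 4 arrays. Of the 5, 1 rose (20%, against 30.7% of all genes) and 1 fell (20%, against 32.6%), too few genes for a result about the family. Hspb6 gave 0.0228 and 0.0235 in splenocytes and 0.162 and 0.184 in the lines and rose by 2.90 ± 0.15 (adjusted p = 0.000427). After normexp it was 1.16. Hspb7 gave 0.0189 and 0.0215 against 0.00759 and 0.0124 and fell by 1.05 ± 0.28 (adjusted p = 0.0307), a call lost without splenocyte sample 1 (0.0787) or splenocyte sample 2 (0.118). It was well above background in 1 of the 2 lines.

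Hspb1, which encodes HSP25 in the mouse, gave 0.104 and 0.0779 in splenocytes and 0.0314 and 0.0614 in the lines. Both lines were lower, but by unequal amounts, and the difference of −1.04 ± 0.38 was not called (adjusted p = 0.0734). It was called without line 2 (−1.52, adjusted p = 0.0179). Cryab, the alpha B crystallin, gave 0.0176 and 0.0392 against 0.0199 and 0.219. Line 2 alone stood out, 11.0-fold above line 1, and the difference of 1.33 ± 1.25 said nothing about the lines as a group (adjusted p = 0.395). The second Cryab probe fell by 1.37 (adjusted p = 0.00751), so the stand-out signal of line 2 was seen at 1 of the 2 probes. Hspb9 differed by −0.15 ± 0.16 (adjusted p = 0.431). Hspb2 and Hspb8 were too dim to be tested. The only probe of Hspb3 carried an outlier flag and was left out, with signals of 0.236, 0.0423, 0.00155 and 0.00334. Hspbap1, named for its binding to HSP25, is no small heat shock protein itself. It gave 4.36 and 4.44 against 2.54 and 2.42 and fell by 0.83 ± 0.14 (adjusted p = 0.00758; 0.0554 without splenocyte sample 2).

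J-domain proteins choose clients for HSP70 and start its ATP cycle. Of 36 names 33 could be tested, and 11 rose (33.3%, against 30.7% of all genes), 8 fell (24.2%, against 32.6%) and 14 did not pass, with a median of 0.14. The share called, 57.6%, lay near the 63.3% of all genes and is no result about these proteins. The counts were 1, 1 and 2 for type A, 2, 3 and 4 for type B and 8, 4 and 8 for type C. Fewer were called higher without splenocyte sample 1 or without splenocyte sample 2, as over all genes. The other 31 tested members had 15 higher (48.4%, against 30.7% of all genes) and 6 lower (19.4%, against 32.6%). Their median was 0.61, against −0.05 over all genes. Of those 15, 8 were CCT genes, and the contrast was not tested. Dnajb7, Dnajb8 and Dnajc6 were too dim to be tested.

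Those that rose included J-domain partners of mitochondrial HSP70. Dnaja3, a mitochondrial type A protein, gave 4.76 and 4.43 in splenocytes and 10.4 and 9.59 in the lines and rose by 1.12 ± 0.15 (adjusted p = 0.00376). Its second probe rose by 1.41. Dnajc19, of the inner membrane import machinery, gave 17.1 and 17.6 against 37.5 and 32.6 and rose by 1.01 ± 0.15 (adjusted p = 0.00565). A second Dnajc19 probe, to a cDNA clone, gave −0.64 (adjusted p = 0.0575), and their mean was 0.19.

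Dnajb13, a protein of cilia and sperm tails, gave 0.0400 and 0.0338 in splenocytes and 0.196 and 0.257 in the lines. It had the largest rise among J-domain proteins (2.61 ± 0.21, adjusted p = 0.00111), or 1.11 after normexp. Dnajc12 gave 0.824 and 1.03 against 2.26 and 2.80 and rose by 1.45 ± 0.20 (adjusted p = 0.00471). Both lines were above both splenocyte samples in each of these genes. Dnajb14, anchored in the membrane of the endoplasmic reticulum, rose by 1.16 ± 0.22 (adjusted p = 0.0118; 0.0581 without splenocyte sample 2). Dnajc2, a ribosome-associated partner of Hspa14, rose by 0.84 ± 0.17 (adjusted p = 0.0126; 0.0702 and 0.0619 without splenocyte samples 1 and 2).

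Of those that fell, Dnaja4, a cytosolic type A protein, changed most. It gave 0.134 and 0.113 in splenocytes and 0.00636 and 0.00331 in the lines, where it was not well above background. It was at least 15.7-fold lower in the lines. The fitted −4.75 ± 0.36 (adjusted p = 0.000993) was computed from line signals not well above background. Dnajb3, a testis gene, gave 0.0188 and 0.0225 against 0.00371 and 0.00194 and was at least 2.62-fold lower. Its fitted −2.94 ± 0.36 (adjusted p = 0.00317) was also computed from line signals not well above background. That call was lost after normexp (−0.93, adjusted p = 0.0647).

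Dnajc4, of type C, gave 4.03 and 4.002 in splenocytes and 1.05 and 1.39 in the lines and fell by 1.73 ± 0.19 (adjusted p = 0.00253). Dnajc16 gave 1.27 and 1.09 against 0.478 and 0.568 and fell by 1.17 ± 0.18 (adjusted p = 0.00562), and 3 of its 4 probes were called lower. Dnajb4, a cytosolic relative of Dnajb1, gave 5.43 and 5.08 against 2.64 and 2.73 and fell by 0.97 ± 0.14 (adjusted p = 0.00503). Both lines were below both splenocyte samples in each of these, and the second Dnajb4 probe fell by 1.72. Dnajb5 fell by 1.12 ± 0.18 (adjusted p = 0.00638) at its brightest probe, while its other probes gave 0.19 and 0.75 without a call and the mean over the 3 was −0.06.

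Dnajb1, Dnaja1 and Dnajc7, named whatever their values, were not called at their brightest probes. Dnajb1, the stress-inducible HSP40, gave 41.7 and 43.6 in splenocytes and 34.7 and 28.1 in the lines (−0.45 ± 0.17, adjusted p = 0.0791). Its second probe gave 5.23 and 5.39 against 2.65 and 2.31 and fell by 1.102 (adjusted p = 0.00426). Both probes were lower in both lines. Dnaja1, the abundant cytosolic type A protein, gave 13.6 and 11.7 against 22.9 and 17.0 (0.65 ± 0.21, adjusted p = 0.0544). Its other probes rose by 1.07 and 1.01 (adjusted p = 0.00759 and 0.00710), so all 3 were higher in both lines. Dnajc7, which binds HSP70 and HSP90, gave 19.0 and 19.0 against 20.5 and 16.5 and overlapped (−0.05 ± 0.17, adjusted p = 0.815).

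In the fit over all tested probes 64.8% were called. The members had 120 tested probes, and 36 members had more than 1. In 15 of these 36 every probe was called in one direction, 11 higher and 4 lower. In 16 some probes were called, in one direction, and others were not, and in 4 none was. The matching shares over all gene names with several probes were not computed, so these counts are no result about the members. Hspa4 alone had calls in opposite directions, where 8.69% of all gene names with several tested probes did.

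**Figure D3:**
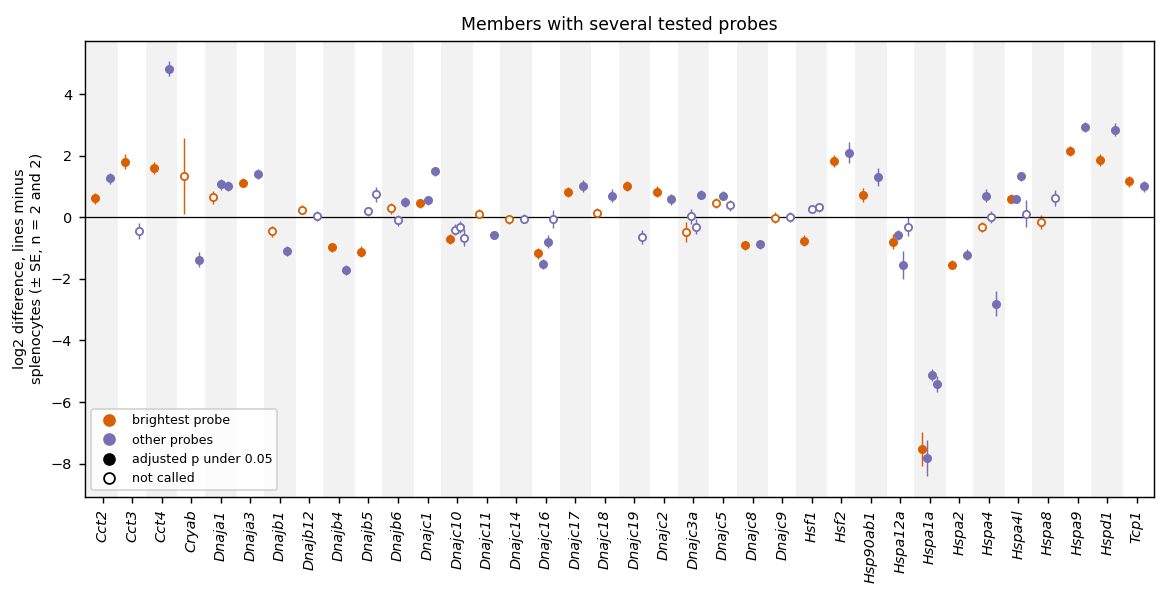
Log2 difference, lines minus splenocytes, of every tested probe of the 36 members with more than 1 tested probe (± SE, n = 2 against 2), with the brightest probe in orange and the others in violet; filled symbols were called in the fit over probes. The 4 Hspa1a probes all lie below −5, and the Hspa4 probes lie on both sides of 0.

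Helpers of these chaperones were examined as lists chosen by function, with earlier results of these data known. Of 27 co-chaperones of HSP70 and HSP90 15 rose (55.6%, against 30.7% of all genes), 4 fell (14.8%, against 32.6%) and 8 did not pass, with a median of 0.90. Bag2, an exchange factor of HSP70, gave 0.175 and 0.118 in splenocytes and 3.33 and 2.63 in the lines and rose by 4.36 ± 0.26 (adjusted p = 0.000607). The HSP90-binding immunophilins Fkbp5 (2.82 ± 0.20) and Fkbp4 (2.20 ± 0.23) rose as well. The falls include Bag3, which passed the filter only through the splenocytes, where it was brighter. Besides Bag3, the largest falls were those of Ttc4 (−1.01 ± 0.17, adjusted p = 0.00741) and Tomm34 (−0.68 ± 0.18, adjusted p = 0.0291). The Tomm34 call was lost without splenocyte sample 1 (0.136), splenocyte sample 2 (0.0926) or line 2 (0.0711).

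Prefoldin, which hands unfolded actin and tubulin to CCT, and cofactors of CCT gave 4 higher (44.4%), 1 lower (11.1%) and 4 not called of 9, with a median of 0.45. The share called, 55.6%, was below the 63.3% of all genes. Pfdn1 gave 1.70 and 1.87 in splenocytes and 10.1 and 8.14 in the lines and rose by 2.35 ± 0.18 (adjusted p = 0.00101). Pfdn4 (2.17 ± 0.15) and Pfdn2 (1.39 ± 0.19) rose too. Pfdn5, also known as a MYC-binding protein, gave 27.3 and 34.7 against 16.3 and 15.3 and fell by 0.97 ± 0.18 (adjusted p = 0.0109; 0.0592 without splenocyte sample 2).

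Of 15 genes of mitochondrial import and quality control 8 rose (53.3%, against 30.7% of all genes), 1 fell (6.67%, against 32.6%) and 6 did not pass, with a median of 0.63. Tomm40, the pore of the outer membrane, gave 0.491 and 0.478 in splenocytes and 2.99 and 2.02 in the lines and rose by 2.34 ± 0.23 (adjusted p = 0.00191). The disaggregase Clpb (2.30 ± 0.14) and the mitochondrial HSP90 Trap1 (1.60 ± 0.19) rose, and the protease subunit Spg7 fell by 0.87 ± 0.23 (adjusted p = 0.0294). The Spg7 call was lost without splenocyte sample 1 (0.114), splenocyte sample 2 (0.0926) or line 1 (0.0506). Over all 4 lists, heat shock genes included, 30 of 58 genes were called higher (51.7%, against 30.7% of all genes). Called lower were 10, Bag3 among them (17.2%, against 32.6%). Without splenocyte sample 2 fewer of the 58 were called, as over all genes.

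**Figure D4:**
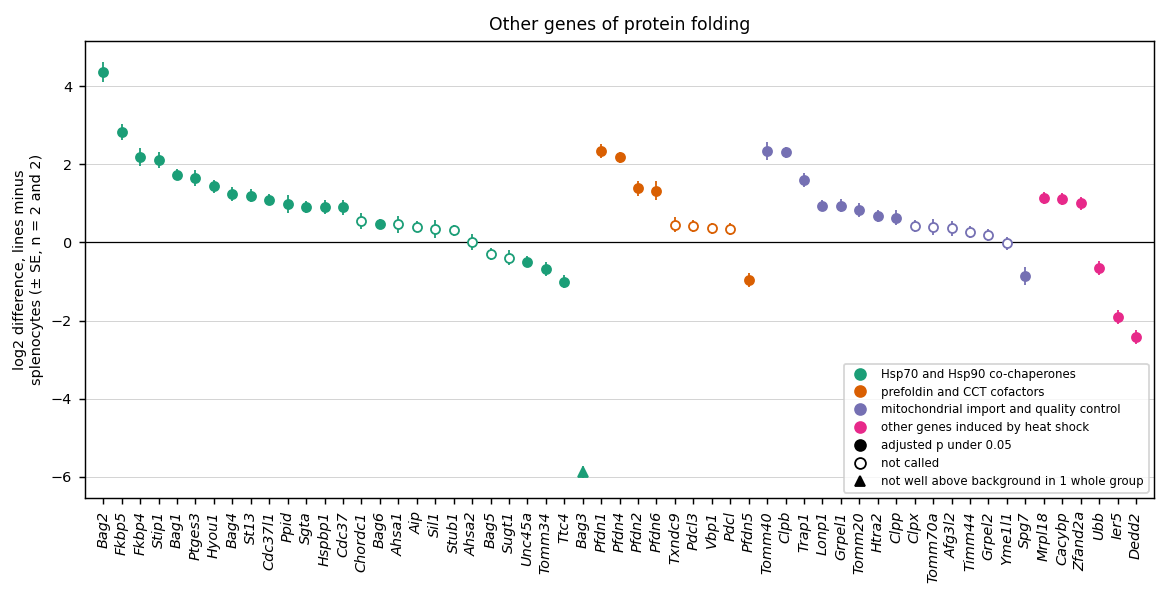
Log2 difference, lines minus splenocytes (± SE, n = 2 against 2), of other folding genes by list; filled symbols had an adjusted p under 0.05 and the triangle marks Bag3, whose brightest probe was not well above background in either line. Most co-chaperones, prefoldin subunits and mitochondrial genes lie above 0, and the heat shock genes split.

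Within each group, samples were compared by size alone. The median fold between the splenocyte samples was 1.07 over members and 1.12 over all genes, and between the lines 1.23 and 1.17. Between the lines 10 members differed by more than 1.5-fold (15.6%, against 16.3% of all genes), the widest being Cryab (11.0-fold) and Hspa1a (3.02-fold). Between the splenocyte samples Cryab was the 1 member past that size (2.23-fold), where 11.2% of all genes were. Each line has 1 array, so these folds have no test.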

How the data were processed

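Total RNA of 2 B220+ splenocyte samples and 2 B-cell lymphoma lines was labelled with Cy3 and hybridised to 1 array each, per the labels. Images were extracted with Agilent Feature Extraction (9.5.1.1 per the file headers, 9.5 per the submitters' processing notes). The deposited processed signal is an intensity, which per the file headers is background-subtracted, with surrogates for dim spots and arrays not scaled to each other. The flags are 0 or 1, as deposited. Per the file headers, all 4 arrays share the slide and the scan. Probe positions are those of the array annotation (mm8).

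A spot with a flag for non-uniformity or for being a population outlier was dropped from all arrays, at a cost of 153 probes, and a probe's other spots were averaged. Values were log2(processed signal) minus the log2 of each array's 75th percentile, taken without control spots. Testing needed 2 of 4 arrays well above background. Each gene name took the tested probe that was brightest on average. Limma 3.58.1 (lmFit and eBayes, two-sided) in R 4.3.3 with the data.table package (version 1.17.8) compared lines with splenocytes, with Benjamini-Hochberg adjustment at 0.05. The fit had 2 residual degrees of freedom and a prior of 2.32. The script was tested on simulated data. Precision is limited by having 2 arrays per group.

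The rule for named genes took all tested members outside the J-domain proteins. It took the 6 largest called rises and falls of the J-domain proteins with Dnaja1, Dnajb1, Dnajb6 and Dnajc7, and the 3 largest of each list of other folding genes. It also took members with probes called in opposite directions and members dim in a whole group. One gene named by this rule is not reported here. The members and lists were chosen with earlier results of these data known. Alternatives changed the scaling, the background correction, the filter, the probe per gene, the variance model, the source of values and the samples.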

Additional observations from a re-analysis of the deposited data

How the results depend on the processing

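Of the 67 genes named with a test 53 were called, and 33 of these kept call and direction under those of the 16 alternatives that tested them, among them Hspd1, Hspa9, Hspa1a, Hspa2, Hspa12b, Hspb6, Tcp1, Cct3, Cct4, Cct6a and Cct6b. Leaving out 1 array at a time gave 24 to 39 members called, 15 to 24 higher and 9 to 15 lower, with 5 to 9 CCT subunits higher, 4 to 9 J-domain proteins higher and 26 to 38 other folding genes called. Centring each array on the median of all probes left 8 members called lower, and no filter on dim probes left 7 J-domain proteins called higher. The scalings moved the median of all genes from −0.05 to 0.09 (quantile normalization), 0.38 (median centring), −0.18 (percentile over probes bright on all arrays) and −0.32 (normexp), and higher genes made up 43.5% to 63.8% of all calls.

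Differences near 0 changed sign. With median centring Hspa8 was 0.28, Hspa4 0.11, Hsp90aa1 0.12, Hspb9 0.28 and Dnajc7 0.38. Quantile normalization gave −0.040 for Hspa14 and 0.10 for Hspb9. The percentile over bright probes gave −0.089 for Hspa1l. Normexp gave −0.35 for Hspa1l, −0.29 for Hsf2, −0.039 for Dnajb6 and 0.025 for Dnajc7. The mean over probes gave 0.24 for Hspa8 and −0.020 for Cryab. Leaving out 1 array gave −0.35 to 0.060 for Hspa8, −0.40 to 3.06 for Cryab and −0.21 to 0.11 for Dnajc7. Except where 1 array decided the value, the cause was not tested.

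Further alternatives were chosen after seeing the data. Centring on the median of tested probes gave 30 members higher and 13 lower and turned Dnajc7 to 0.070. Leaving out every probe with a flagged spot gave 26 and 14. Choosing members by array name or by the current RefSeq symbol of a gene's brightest probe, without Dnajc3a, gave 32 and 16 of 72. Deviations of same-numbered arrays correlated at 0.0138 across genes, and the numbers were not taken to pair the samples. With a replicate block 59.0% of genes were called, and 21 members rose and 13 fell. A block for slide or scan was not run, since all arrays share both. Probes dim in a group give bounds only.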

Other observations

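Several relatives of the heat shock proteins carry older names on the array and so stood outside the members. They were looked up by their current RefSeq symbols after the data were seen. Hsph1, the HSP110 exchange factor that is itself a heat shock gene, gave relative signals of 11.2 and 11.5 for splenocytes against 18.4 and 15.02 for the lines. It rose by 0.55 ± 0.17 (limma adjusted p = 0.0453). Hspa13, a microsomal HSP70 relative, was higher in both lines at both its probes, which rose by 1.34 ± 0.25 and 2.41 ± 0.24. Hspbp1, which releases nucleotide from HSP70, rose at both probes, by 0.90 ± 0.18 and 1.09 ± 0.19.

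The J-domain proteins under older names were called in both directions. Dnajc30 (1.07 ± 0.15), Dnajc25 (0.89 ± 0.20) and Dnajc24 (0.64 ± 0.16) rose. The brighter probe of Dnajc28 gave 0.117 and 0.105 for splenocytes and 0.0160 and 0.0211 for the lines and fell by 2.59 ± 0.20 (limma adjusted p = 0.000927), while its dimmer probe gave 0.15 without a call. Of 3 Dnajc27 probes the brightest fell by 0.88 ± 0.24 and the others were not called. Hspb11, a small protein of the ciliary transport machinery despite its name, fell by 0.86 ± 0.15.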
